A study of Mus musculus with 4 samples.

Results

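Interferon-stimulated genes are the genes that cells switch on when interferons, the cytokines of antiviral and inflammatory defence, reach their receptors. A list of 43 mouse genes of this class was followed, of 24421 genes in the count files, and all 43 had enough counts to be tested. The genes were taken by symbol for their known response to interferon. They were described as 10 type I-led genes of the Ifit, Oas and Mx families, 9 gamma-led genes of the Gbp and immunity-related GTPase families, and 24 remaining genes.

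The cells were regulatory T cells (Tregs), the CD4+ lymphocytes that restrain immune responses and are defined by the transcription factor Foxp3. Per the labels, CD45.1+ mice carried EG7.1.15 tumor cells given into the peritoneal cavity, and each was joined by surgery to a tumor-free CD45.1- partner for 14 days. Omental tumors and spleens of mouse 2 and mouse 3 gave 1 library each, so there were 2 libraries of omental tumor Tregs and 2 of spleen Tregs. All 4 libraries were of the strain B6 Foxp3-DTR/GFP, were taken at day 14 after tumor injection, and came from the tumor-bearing animal but held cells that had entered it from the partner. These were sorted as live CD45.1-CD45.2+B220-CD4+CD25+ cells with the GFP reporter of Foxp3, which in this strain is made from the Foxp3 gene together with a diphtheria toxin receptor. The spleens were thus also from tumor-bearing hosts, and Tregs from a tumor-free host were not analysed here. What the comparison asks is how partner-derived Tregs found in the tumor-bearing omentum differed from those found in the spleen of the same host.

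Type I interferons, the alpha and beta families, act through the receptor chains Ifnar1 and Ifnar2 and the kinases Jak1 and Tyk2. Stat2 and Irf9 then act in the complex ISGF3, which binds the interferon-stimulated response element (ISRE) in promoters. Interferon gamma acts through Ifngr1, Ifngr2, Jak1 and Jak2, and its response runs through the gamma-activated site (GAS). Many genes answer to both kinds of interferon, so the names type I-led and gamma-led give the stronger known inducer and not an exclusive one. In T cells, interferons are known to alter proliferation, survival and, in Tregs, suppressive function.

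The libraries held 6660230 and 3764508 counts in genes for omental tumor mouse 2 and mouse 3, against 9989005 and 13598631 for spleen. Levels are given as CPM, counts scaled to a common library size with TMM factors, and 1 count was worth 0.131 and 0.253 CPM in the omental libraries, against 0.0979 and 0.0915 CPM in the spleen libraries. The transcript of the sorted marker Foxp3 was present in all 4, at 81.4 and 84.3 CPM in omental tumor and 113 and 144 CPM in spleen. Cd4 had 376 and 114 CPM in omental tumor, against 568 and 1008 CPM in spleen. Il2ra, the gene of CD25, had 689.9 and 319.5 CPM in omental tumor, against 699.7 and 886 CPM in spleen. The 5 listed Treg markers, Foxp3 and Il2ra among them, did not share 1 direction, with 2 positive and 3 negative log2 fold changes. They summed to 3086 and 3364 CPM in omental tumor, against 2009 and 3125 CPM in spleen. Ctla4, the most abundant of the 5, had 1239 and 1290 CPM in omental tumor, against 391 and 764 CPM in spleen. The omental library of mouse 3 also carried neutrophil transcripts: 8 of 9 listed neutrophil markers were in the files, and they summed to 142 and 1447 CPM in omental tumor of mouse 2 and mouse 3, against 94.7 and 66.7 CPM in spleen. S100a9, a calcium-binding protein abundant in neutrophils, had 1.58 and 475 CPM in omental tumor, against 9.10 and 7.50 CPM in spleen, and none of the 8 was at 0 in any library. Of the 7 neutrophil markers tested, 6 had positive log2 fold changes and 1, Ngp, a negative one. Ngp and Camp were highest in spleen mouse 3, at 8.69 and 1.19 CPM, against 1.52 and 0.506 CPM in omental tumor of that mouse. Markers of monocytes and macrophages summed to 1268 and 1122 CPM in omental tumor, against 422 and 927 CPM in spleen, over 14 of 14 listed genes. Ccr2 had the highest mean of these, at 739 and 207 CPM in omental tumor, against 185 and 464 CPM in spleen. Its level therefore weighs on the sums. Markers of dendritic cells (8 of 8 listed genes) summed to 155 and 81.5 CPM in omental tumor, against 63.1 and 36.6 CPM in spleen, and of these markers Flt3 was at 0 in spleen mouse 3. The omental library of mouse 2 stood apart by fibroblast and mesothelial markers, which summed to 177 and 15.4 CPM in omental tumor, against 13.9 and 6.95 CPM in spleen (9 of 9 listed genes; Lum and Wt1 were at 0 in both libraries of mouse 3). Among them Col3a1, a fibrillar collagen, had 91.2 and 2.03 CPM in omental tumor, against 2.64 and 1.83 CPM in spleen (edgeR adjusted p 0.000425). Markers of B cells, which the sort was set to leave out, summed to 80.2 and 24.1 CPM in omental tumor, against 47.7 and 50.1 CPM in spleen, over 5 of 6 listed genes. The part of these other cells in the levels below was not tested. In such bulk libraries, fewer cells of a type and less RNA per cell cannot be told apart.

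The promoters of the genes that the results turn on are given first, because the ISRE and GAS are the elements through which the type I and gamma branches act. Promoters covering 250 bases before to 50 bases after the gene start were in RefSeq's table for GRCm38.p6 for 31 of the 43 genes, with 38 promoters in all because some genes have several. The ISRE was searched on both strands as GAAA, any 2 bases and GAAA again, and the GAS as TTCNNNGAA, which is its own reverse complement. Capitals mark the matched letters, and all sequences read 5′ to 3′ on the strand of the gene. The promoter of Rsad2 (viperin, an antiviral enzyme of the endoplasmic reticulum), the gene with the greatest rise of the 43, held an ISRE match 120 to 111 bases upstream of the start. That of Igtp (Irgm3, an immunity-related GTPase), the gene with the highest level per kilobase of exon in both spleen libraries, held a GAS match 45 to 37 bases upstream and an ISRE match 34 to 25 bases upstream.
Rsad2, chr12:26456403-26456702, minus strand: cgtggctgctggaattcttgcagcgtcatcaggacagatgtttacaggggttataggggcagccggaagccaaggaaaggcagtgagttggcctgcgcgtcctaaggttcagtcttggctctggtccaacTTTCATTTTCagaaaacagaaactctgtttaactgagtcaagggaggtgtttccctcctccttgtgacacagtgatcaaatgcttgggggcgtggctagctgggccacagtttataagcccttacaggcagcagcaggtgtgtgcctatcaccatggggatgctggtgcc
Igtp, chr11:58199306-58199605, plus strand: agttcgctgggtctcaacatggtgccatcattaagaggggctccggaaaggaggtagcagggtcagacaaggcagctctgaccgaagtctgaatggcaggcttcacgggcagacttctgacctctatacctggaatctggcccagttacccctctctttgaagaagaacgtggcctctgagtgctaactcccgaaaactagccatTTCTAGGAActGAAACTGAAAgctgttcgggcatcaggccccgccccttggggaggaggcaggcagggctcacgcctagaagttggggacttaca

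Shorter stretches around a match are shown for further members from each group, to let the elements be compared letter by letter.
Ifit1 ISRE, chr19:34640770-34640809, plus strand: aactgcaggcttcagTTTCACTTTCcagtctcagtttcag
Ifit3 ISRE, chr19:34583392-34583431, plus strand: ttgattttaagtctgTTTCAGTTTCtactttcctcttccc
Oas3 ISRE, chr5:120777710-120777749, minus strand: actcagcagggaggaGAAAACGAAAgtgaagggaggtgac
Isg15 ISRE, chr4:156200860-156200911, minus strand: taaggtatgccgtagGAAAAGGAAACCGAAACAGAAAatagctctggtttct
Gbp2 ISRE, chr3:142620589-142620628, plus strand: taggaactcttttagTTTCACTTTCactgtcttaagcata
Gbp7 ISRE, chr3:142530268-142530307, plus strand: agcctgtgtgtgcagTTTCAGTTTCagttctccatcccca
Irf1 GAS, chr11:53769909-53769947, plus strand: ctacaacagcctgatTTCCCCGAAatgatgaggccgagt
The Isg15 stretch holds 3 overlapping matches, and the others hold 1 in capitals each. Ifit1 and Ifit3 each have a further ISRE match outside the capitals, and Gbp7 has GAS matches outside the stretch shown.

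An ISRE match was found in at least 1 promoter of 18 of the 31 genes (58.1%), against 3.99% of the 27025 genes in the table and 3.94% of the 12369 tested genes it covers. A GAS match was found in 10 of the 31 genes (32.3%), against 9.55% of all genes in the table. By group, 4 of 7 type I-led genes, 6 of 6 gamma-led genes and 8 of 18 remaining genes had a promoter with an ISRE match, although 1 of the 2 Gbp3 promoters had none. A GAS match was found for 2 of 7, 3 of 6 and 5 of 18 genes. ISRE matches were thus found in every group, and 6 genes held both elements. In Bst2 the GAS and ISRE matches overlapped. Among the type I-led genes, no ISRE match was found for Oasl1, Oasl2 and Ifit2, and Oasl1 and Oasl2 had no GAS match either. A match is a run of letters and not a measured binding site, and no binding data were used here.

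The tissues were compared by a test over all 4 libraries, by the ratio within each mouse and by the level in each library. In the test, 3 of the 43 genes rose in omental tumor Tregs, namely Rsad2, Oasl1 and Ifit3, and 0 fell, by edgeR's quasi-likelihood test with Benjamini-Hochberg adjustment at 0.05. Of all 16322 genes tested, 1.16% rose and 0.263% fell. With the mouse as replicate block, which compares the tissues within each animal, 0 of the 43 rose or fell, against 1.29% and 0.312% of all genes. Without the omental library of mouse 3, or without either spleen library, 0 of the 43 rose. The shares of all genes became 1.29% and 0.0796% under upper-quartile factors and 0.159% and 0.0123% under library totals alone. At an unadjusted p under 0.05, 8 of the 43 genes were higher and 3 lower in omental tumor, against 4.97% and 5.28% of all genes tested. The median log2 fold change of omental tumor over spleen was -0.07 over the 43 genes, beside 0.13 over all genes tested. Of the 43, 20 were positive and 23 negative, against 53.9% and 46.1% of all genes. Under upper-quartile factors 28 were positive and 15 negative, beside a median of 0.62 over all genes tested. No gene of the 43 had both omental libraries above both spleen libraries, against 16.4% of all genes. For 13 of the 43 both omental libraries were below both spleen libraries, against 25.4% of all genes. The rises of Rsad2, Oasl1 and Ifit3 therefore come with overlapping groups, and the levels in each library show how.

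The Ifit genes encode proteins that bind foreign or incompletely capped RNA and block its translation. Ifit1 had 38.2 CPM and 948 CPM in omental tumor of mouse 2 and mouse 3, against 96.8 CPM and 135 CPM in spleen of the same mice. Ifit2 had 29.9 CPM and 1028 CPM in omental tumor, against 97.2 CPM and 136 CPM in spleen. Ifit3 had 10.2 CPM and 511 CPM in omental tumor, against 30.4 CPM and 38.0 CPM in spleen. All 3 were lowest in the omental library of mouse 2 and highest in that of mouse 3, with both spleen libraries between them. The log2 fold changes were 2.09 ± 0.83 for Ifit1 and 2.18 ± 0.83 for Ifit2 (SE), which did not pass the edgeR test (adjusted p 0.284 and 0.252). For Ifit3 the log2 fold change was 2.93 ± 0.80 (SE), with an adjusted p of 0.0239 in edgeR's quasi-likelihood test and of 0.678 with the mouse as replicate block. An SE here is derived from the test statistic, and the spread of the gene between mice does not enter it. Without the omental library of mouse 3 the log2 fold change of Ifit3 was -1.83.

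**Figure D1:**
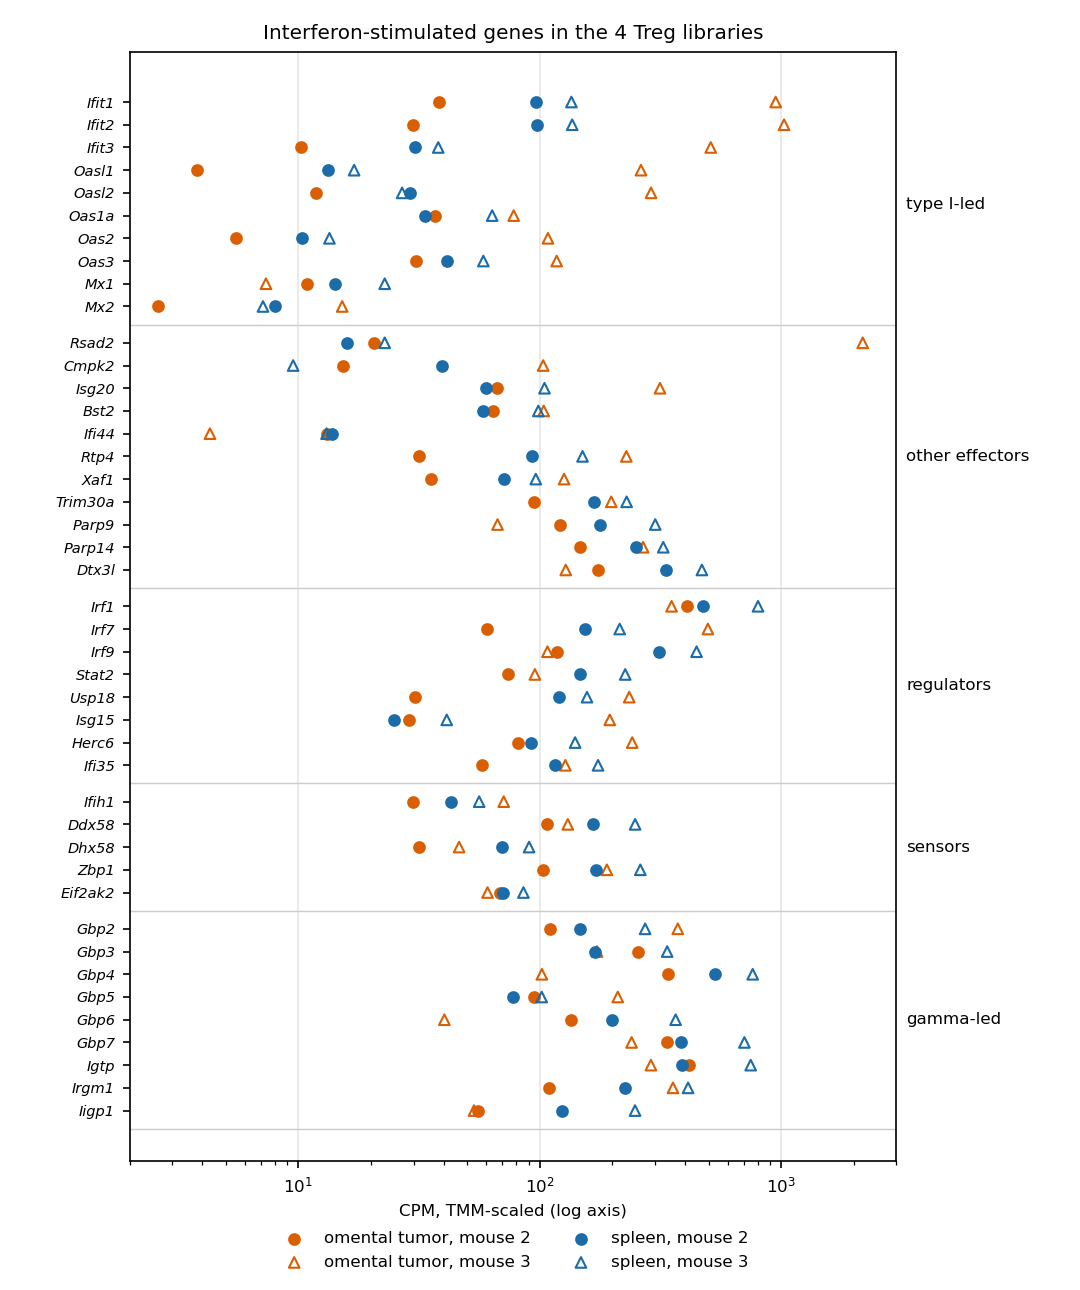
Level of each of the 43 interferon-stimulated genes (rows, by group) in CPM on a log axis, with 1 point for each library: omental tumor mouse 2 and mouse 3, spleen mouse 2 and mouse 3. In most type I-led genes the omental library of mouse 3 lies far to the right and that of mouse 2 to the left of both spleen libraries, as for Oasl1 at 263 CPM and 3.81 CPM in omental tumor against 13.3 and 17.0 CPM in spleen.

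The Oas genes encode sensors of double-stranded RNA that make the messenger 2-5A and so activate RNase L, and the related Oasl1 is known in mice to restrain translation of Irf7. Oasl1 had 3.81 CPM and 263 CPM in omental tumor, against 13.3 CPM and 17.0 CPM in spleen. The omental value of mouse 2 rests on 29 counts. The log2 fold change of Oasl1 was 3.13 ± 0.80 (SE; edgeR adjusted p 0.00973, or 0.680 with the mouse as replicate block), and -2.08 without the omental library of mouse 3 (edgeR adjusted p 0.802). Oasl2, a related protein that retains the synthase domain, had 11.8 CPM and 289 CPM in omental tumor, against 29.0 CPM and 26.9 CPM in spleen (log2 fold change 2.42 ± 0.77, SE; adjusted p 0.0938 by edgeR). Oas2 had 5.51 CPM and 108 CPM in omental tumor, against 10.4 CPM and 13.5 CPM in spleen (log2 fold change 2.24 ± 0.79, SE; adjusted p 0.179 by edgeR). Oasl1, Oasl2 and Oas2 had the order of the Ifit genes, with both spleen libraries between the omental ones.

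Of the other Oas and Mx genes, Oas3 and Mx2 kept this order with a smaller spread, and Oas1a and Mx1 did not have it. Oas3, the synthase of long double-stranded RNA, had 30.6 CPM and 117 CPM in omental tumor, against 41.2 CPM and 58.4 CPM in spleen. Oas1a had 36.9 CPM and 78.0 CPM in omental tumor, against 33.4 CPM and 63.5 CPM in spleen, and was the type I-led gene with a higher omental level in both mice. Mx1 and Mx2, dynamin-like GTPases that block viral replication, split. Mx2 had 2.63 CPM and 15.2 CPM in omental tumor, against 8.02 CPM and 7.14 CPM in spleen. Mx1 had 10.9 CPM and 7.34 CPM in omental tumor, against 14.2 CPM and 22.8 CPM in spleen, and so was below spleen in both mice. Mx1 is known to carry an inactivating deletion in many laboratory strains, and its counts were low, at 83 and 29 in omental tumor against 145 and 249 in spleen. Over the 10 type I-led genes, 2 rose and 0 fell, against 1.16% and 0.263% of all genes tested, and 9 had positive log2 fold changes, against 53.9% of all genes. Their median (0.13 over all genes) was 2.13, or -1.47 without the omental library of mouse 3.

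Rsad2 differed more between the omental libraries than any other of the 43 genes. It had 20.5 CPM and 2176 CPM in omental tumor of mouse 2 and mouse 3, against 16.0 CPM and 22.8 CPM in spleen. The omental mean was 1098 ± 1524 CPM and the spleen mean 19.4 ± 4.83 CPM (SD, n = 2 each). The omental library of mouse 3 alone was high, at 104 times the level of the omental library of mouse 2, and the level of mouse 2 lay between those of the spleens. The log2 fold change was 5.82 ± 1.06 (SE), with an adjusted p of 1.69e-05 in edgeR's quasi-likelihood test and of 0.187 with the mouse as replicate block. It was -0.011 without the omental library of mouse 3 (edgeR adjusted p 0.996). S100a8, another neutrophil transcript, had 0.131 and 412 CPM in omental tumor, against 6.26 and 9.52 CPM in spleen, and its part in the level of Rsad2 was not tested. Rsad2 made up 0.510% and 19.3% of all counts in the 43 genes in omental tumor, against 0.272% and 0.247% in spleen.

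Cmpk2, a mitochondrial nucleotide kinase, is the neighbour of Rsad2 on chromosome 12, where the genes lie head to head at chr12:26442746-26456452 (Rsad2, minus strand) and chr12:26469204-26479837 (Cmpk2, plus strand) in GRCm38. It had 15.4 CPM and 103 CPM in omental tumor, against 39.4 CPM and 9.52 CPM in spleen, and did not pass the test (log2 fold change 1.27 ± 0.76, SE; edgeR adjusted p 0.578). Its spleen libraries differed by a factor of 0.251 (mouse 3 over mouse 2), in the opposite direction to those of Rsad2. The counts of Rsad2 over those of Cmpk2 stood at 1.33 and 21.1 in omental tumor, against 0.404 and 2.39 in spleen. The neighbours therefore did not keep a fixed ratio in these libraries.

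The other effectors outside the Ifit, Oas and Mx families differed less between the tissues than Rsad2. Isg20, an exonuclease that degrades viral RNA, had 66.3 CPM and 315 CPM in omental tumor, against 60.0 CPM and 105 CPM in spleen (log2 fold change 1.21). Rtp4, a chaperone-related protein that in mice restrains the type I response, had 31.5 CPM and 228 CPM in omental tumor, against 93.0 CPM and 150.3 CPM in spleen. Xaf1, a pro-apoptotic protein, had 35.6 CPM and 126 CPM in omental tumor, against 71.1 CPM and 96.3 CPM in spleen. All 3 were highest in the omental library of mouse 3. Bst2 (tetherin, which holds budding virus at the membrane) had 63.9 CPM and 104 CPM in omental tumor, against 58.4 CPM and 98.6 CPM in spleen, and so was almost level between the tissues in either mouse. Ifi44 was low throughout, at 13.1 CPM and 4.30 CPM in omental tumor against 13.8 CPM and 13.1 CPM in spleen, with 17 counts in the omental library of mouse 3.

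The last effectors lay on the other side. Parp9 and Dtx3l form a complex of an ADP-ribosyltransferase family member and a ubiquitin ligase. Parp9 had 122 CPM and 66.8 CPM in omental tumor, against 178 CPM and 301 CPM in spleen. Dtx3l had 175 CPM and 128 CPM in omental tumor, against 332 CPM and 469 CPM in spleen. Both were below spleen in both mice without overlap, as were 25.4% of all genes tested. Their log2 fold changes were -1.34 ± 0.77 and -1.40 ± 0.80 (SE), and neither passed the test (edgeR adjusted p 0.553 for both). The 2 genes overlap on opposite strands, and neither kit used marks strand, so their reads cannot be fully told apart. Parp14, a mono-ADP-ribosyltransferase, had 146 CPM and 268 CPM in omental tumor, against 251 CPM and 325 CPM in spleen. Trim30a, a tripartite motif protein, had 94.8 CPM and 198 CPM in omental tumor, against 167 CPM and 229 CPM in spleen. Both were lower in omental tumor in each mouse, although the groups overlapped.

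The regulators of the response did not share 1 pattern. Irf7, the factor that amplifies type I interferon production, had 60.6 CPM and 497 CPM in omental tumor, against 153 CPM and 214 CPM in spleen. Usp18, which removes Isg15 from proteins and blocks Ifnar2 signalling, had 30.5 CPM and 235 CPM in omental tumor, against 121 CPM and 157 CPM in spleen. Isg15, the ubiquitin-like modifier, had 28.6 CPM and 195 CPM in omental tumor, against 24.9 CPM and 41.2 CPM in spleen. In all 3 the omental library of mouse 3 was the highest, and Isg15 came nearest to the threshold with a log2 fold change of 1.75 ± 0.75 (SE; edgeR adjusted p 0.355, unadjusted p 0.0199). Herc6, the mouse ligase that attaches Isg15, had 81.4 CPM and 242 CPM in omental tumor, against 91.8 CPM and 140.1 CPM in spleen.

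The factors of the signalling complexes lay lower in omental tumor in both mice. Irf9, the DNA-binding part of ISGF3, had 118 CPM and 108 CPM in omental tumor, against 313 CPM and 446 CPM in spleen. Its groups were apart, and its log2 fold change of -1.75 ± 0.80 (SE) had an unadjusted p of 0.0285 and an adjusted p of 0.413 in the edgeR test. Stat2 had 73.9 CPM and 95.4 CPM in omental tumor, against 146 CPM and 226 CPM in spleen (log2 fold change -1.14 ± 0.75, SE; edgeR adjusted p 0.629). Irf1, a factor induced early by interferon gamma, had 407 CPM and 351 CPM in omental tumor, against 472 CPM and 802 CPM in spleen. None of these passed the test, though each had both omental libraries below both spleen libraries, as did 25.4% of all genes tested. Irf9 overlaps Rnf31 on the same strand in the annotation used, and Irf7 overlaps Phrf1 on the other strand. Ifi35, an adaptor partner of Nmi, had 57.4 CPM and 128 CPM in omental tumor, against 116 CPM and 174 CPM in spleen.

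Of the 5 cytosolic sensors of nucleic acid, 4 had negative log2 fold changes, against 46.1% of all genes, down to -1.04 for Dhx58. Ddx58 (RIG-I) had 108 CPM and 131 CPM in omental tumor, against 166 CPM and 248 CPM in spleen. Dhx58 (LGP2), which tunes the other RNA helicases, had 31.6 CPM and 46.3 CPM in omental tumor, against 69.7 CPM and 90.3 CPM in spleen. Eif2ak2 (PKR, the kinase that stops translation on double-stranded RNA) had 68.1 CPM and 60.8 CPM in omental tumor, against 70.4 CPM and 85.6 CPM in spleen. These 3 were lower in omental tumor in both mice without overlap, as were 25.4% of all genes tested, and did not pass the test. For Eif2ak2 the gap in mouse 2 was small, and its log2 fold change of -0.27 turned to 0.24 under upper-quartile factors, 0.016 under library totals alone, 0.0062 at a minimum count of 50 and 0.12 without spleen mouse 3. Zbp1, a sensor of left-handed nucleic acid that can trigger cell death, had 103 CPM and 190 CPM in omental tumor, against 171 CPM and 261 CPM in spleen. Ifih1 (MDA5) had 29.9 CPM and 70.9 CPM in omental tumor, against 42.9 CPM and 56.1 CPM in spleen. Over the 24 remaining genes, 1 rose and 0 fell, against 1.16% and 0.263% of all genes tested. Their median log2 fold change (0.13 over all genes) was -0.36, and turned to 0.19 under upper-quartile factors and to 0.15 without spleen mouse 3.

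The gamma-led genes, guanylate-binding proteins and immunity-related GTPases that attack the vacuoles of intracellular microbes, mostly had lower values in omental tumor. Of the 9, 0 rose and 0 fell, against 1.16% and 0.263% of all genes tested, and 2 had positive and 7 negative log2 fold changes, against 53.9% and 46.1% of all genes. Their median (0.13 over all genes) was -0.69, or 0.068 without spleen mouse 3. Gbp4 had 340.2 CPM and 102 CPM in omental tumor, against 532 CPM and 762 CPM in spleen. Gbp6 had 135 CPM and 40.3 CPM in omental tumor, against 199 CPM and 365 CPM in spleen. Iigp1, an immunity-related GTPase that loads onto parasite vacuoles, had 55.7 CPM and 53.4 CPM in omental tumor, against 124 CPM and 248 CPM in spleen. In these 3 and in Gbp7 the omental libraries were both below the spleen libraries, as in 25.4% of all genes tested. The omental library of mouse 3 was the lowest in each. The log2 fold changes were -1.55 ± 0.85 for Gbp4, -1.68 ± 0.78 for Gbp6 and -1.77 ± 0.76 for Iigp1 (SE), with edgeR adjusted p of 0.534, 0.423 and 0.355.

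Gbp7 had 338 CPM and 240.0 CPM in omental tumor, against 383 CPM and 704 CPM in spleen. Igtp had 414 CPM and 289 CPM in omental tumor, against 387 CPM and 747 CPM in spleen. Gbp3 had 254 CPM and 173 CPM in omental tumor, against 169 CPM and 337 CPM in spleen. For Igtp and Gbp3 the omental library of mouse 2 was above its spleen partner and that of mouse 3 below. The other 3 were higher in the omental library of mouse 3 than in that of mouse 2. Gbp2 had 111 CPM and 373 CPM in omental tumor, against 146 CPM and 273 CPM in spleen. Gbp5, which promotes inflammasome assembly, had 95 CPM and 210.4 CPM in omental tumor, against 77.2 CPM and 102 CPM in spleen. Irgm1, a regulator of the other immunity-related GTPases, had 109 CPM and 356 CPM in omental tumor, against 226 CPM and 411 CPM in spleen. The Gbp genes, on chromosomes 3 (Gbp2, Gbp3, Gbp5 and Gbp7) and 5 (Gbp4 and Gbp6), are close copies of each other, Gbp4 overlaps Gbp8 and Gbp9, and Igtp overlaps Irgm2, so the split of reads among them is uncertain. Of 13 tested markers of the T cell lineage, 0 rose and 0 fell, against 1.16% and 0.263% of all genes tested. All 13 had negative log2 fold changes, against 46.1% of all genes, and 11 were lower in both mice, against 31.6%. They summed to 4759 and 4922 CPM in omental tumor, against 7073 and 11363 CPM in spleen. The sum of the 5 Treg markers went the other way in each mouse, at 3086 and 3364 CPM in omental tumor, against 2009 and 3125 CPM in spleen. By gene they were mixed: 2 were higher in both mice, and 2, Foxp3 and Il2ra, were lower in both. The part of these marker differences in the gamma-led levels was not tested.

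Levels between genes can be compared per kilobase of exon. On this scale Igtp was the highest of the 43 genes in the omental library of mouse 2, at 205 CPM per kilobase, and in both spleen libraries, at 191 and 370 CPM per kilobase. Irf1 came next in those libraries, at 102 CPM per kilobase in the omental library of mouse 2, against 119 and 202 CPM per kilobase in spleen. The order was different in the omental library of mouse 3, where Rsad2 led at 502 CPM per kilobase, ahead of Ifit1 at 357 and Ifit3 at 293. In the omental library of mouse 2, Rsad2 had 4.72 CPM per kilobase.

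Taking each mouse by itself, omental tumor over spleen, makes the difference between mice plain. In mouse 2, 35 of the 43 genes were lower in omental tumor, against 46.6% of all genes tested, with a median log2 ratio of -0.72 beside 0.07 over all genes. In mouse 3, 22 of the 43 were higher and 21 lower, against 51.8% and 48.1% of all genes, with a median of 0.07 beside 0.08. The type I-led genes had medians of -1.29 in mouse 2 and 2.86 in mouse 3, and 8 of the 10 were lower in omental tumor in mouse 2 and higher in mouse 3, as were 14.9% of all genes. The gamma-led genes had medians of -0.40 in mouse 2 and -1.37 in mouse 3, and 5 of the 9 were lower in both mice, against 31.6% of all genes. Over all 43 genes, 6 were higher in both mice, against 36.9% of all genes, and 19 were lower in both, against 31.6%. The remaining 18 were higher in 1 mouse and lower in the other, as were 5117 of all 16322 genes tested.

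**Figure D2:**
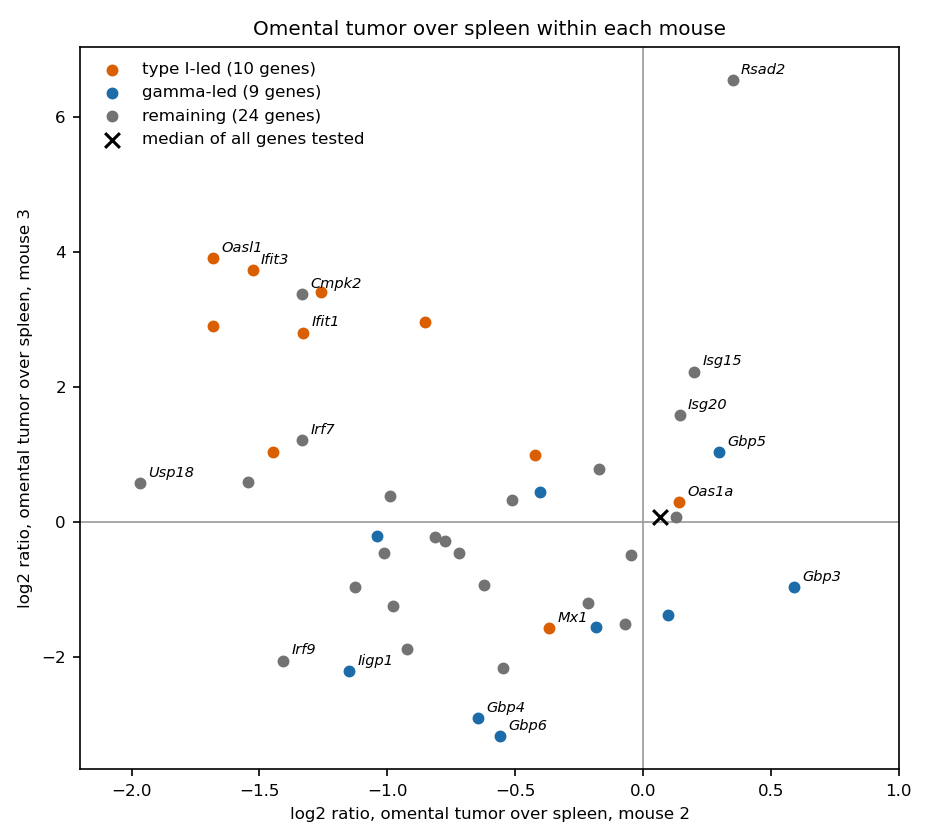
Log2 ratio of omental tumor over spleen in mouse 2 (horizontal axis) and mouse 3 (vertical axis) for each of the 43 genes, on CPM plus an offset of 0.5, coloured by group. The type I-led genes gather at the upper left, as for Ifit3 at -1.53 in mouse 2 and 3.73 in mouse 3, and most gamma-led genes lie below 0 on the vertical axis, as for Gbp6 at -0.56 and -3.17.

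The genes that were higher in both mice were Oas1a, Gbp5, Isg15, Rsad2, Isg20 and Bst2. Rsad2 had a log2 ratio of 0.35 in mouse 2 and 6.55 in mouse 3, Isg15 of 0.20 and 2.23, and Isg20 of 0.14 and 1.58. In mouse 2 the ratios of all 6 were at most 0.35. The lowest ratios of mouse 2 were those of Usp18, at -1.97, and of Ifit2 and Oasl1, both at -1.68. In mouse 3 the ratios of Ifit2 and Oasl1 were 2.91 and 3.91.

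The summed levels tell the same order. The 10 type I-led genes summed to 180 CPM and 3364 CPM in omental tumor of mouse 2 and mouse 3, against 374 CPM and 519 CPM in spleen. The 9 gamma-led genes summed to 1852 CPM and 1837 CPM in omental tumor, against 2244 CPM and 3950.0 CPM in spleen. Type I-led counts over gamma-led counts stood at 0.0974 and 1.83 in omental tumor, against 0.167 and 0.131 in spleen. Within a library this ratio does not depend on the scaling of that library, and it set the omental library of mouse 3 apart from the other three. All 43 genes together took 0.459% and 1.18% of the counts in genes in omental tumor, against 0.599% and 0.742% in spleen.

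**Figure D3:**
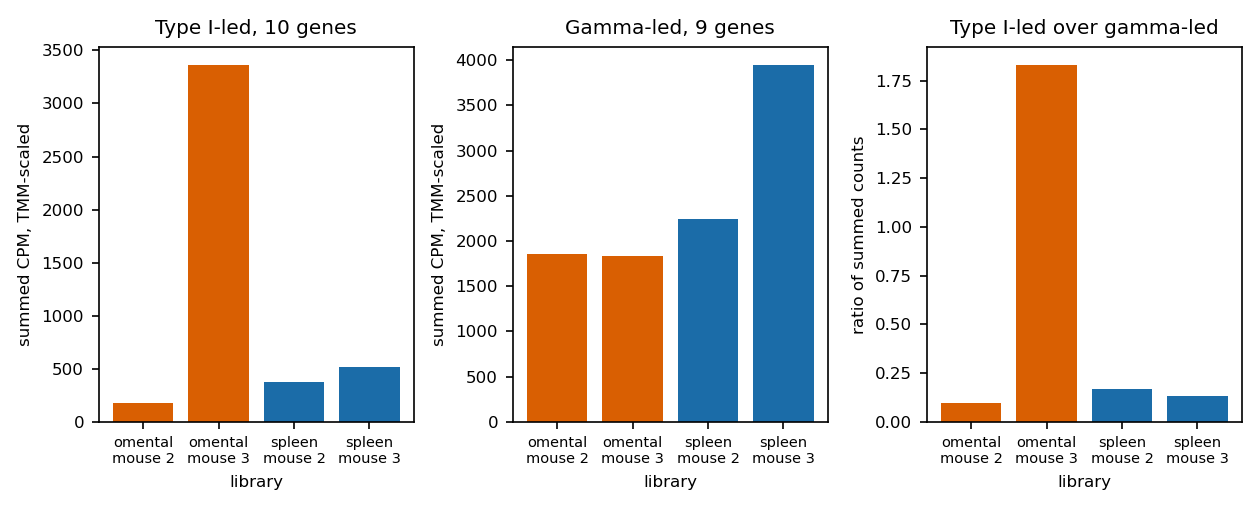
Summed CPM of the type I-led genes (left) and gamma-led genes (middle) and the ratio of their summed counts (right) in each of the 4 libraries (bars, from 0). The type I-led sum of the omental library of mouse 3, 3364 CPM, stands above the 180 CPM of omental mouse 2 and the 374 and 519 CPM of spleen, while the gamma-led sums of both omental libraries, 1852 and 1837 CPM, lie below those of spleen.

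The type I-led genes spread less between the mice in spleen than in omental tumor. Spleen mouse 3 over spleen mouse 2 had a median fold of 1.34 for the type I-led genes and 1.84 for the gamma-led genes. The same fold in omental tumor, mouse 3 over mouse 2, had a median of 20.8 for the type I-led genes and 0.711 for the gamma-led genes. The omental library of mouse 3 was the highest of the 4 for 22 of the 43 genes, against 19.9% of all genes tested, and for 9 of the 10 type I-led genes. The omental library of mouse 2 was the lowest of the 4 for 23 of the 43, against 13.8% of all genes. The omental library of mouse 3 was also the one with 1447 CPM of neutrophil markers, and that of mouse 2 the one with 177 CPM of fibroblast and mesothelial markers. Their part in these orders was not tested.

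Because 1 library carried the rises, the comparison was repeated with each library left out, the lone library of a tissue being assumed to vary like the pair in the other. Without the omental library of mouse 3, 0 of the 43 genes rose or fell, against 0.392% and 0.0331% of all genes, and all 43 log2 fold changes were negative, against 47.2% of all genes. In that fit Rsad2 stood at -0.011, Oasl1 at -2.08 and Ifit3 at -1.83, with edgeR adjusted p of 0.996, 0.802 and 0.802. Without the omental library of mouse 2, 5 of the 43 rose and 0 fell, against 1.47% and 0.148% of all genes, with Oasl2 and Oas2 beside Rsad2, Oasl1 and Ifit3. In that fit 20 of the 43 log2 fold changes were negative, against 59.3% of all genes. Without spleen mouse 2, 0 of the 43 rose or fell, against 0.307% and 0.0406% of all genes, and the edgeR adjusted p was 0.201 for Rsad2, 0.477 for Oasl1 and 0.489 for Ifit3, with 28 of the 43 negative against 42.7% of all genes. Without spleen mouse 3, 0 rose or fell, against 0.476% and 0.0737% of all genes, and the edgeR adjusted p was 0.152 for Rsad2, 0.312 for Oasl1 and 0.497 for Ifit3, with 13 of the 43 negative against 41.3% of all genes. The median of the type I-led genes was -1.47 without the omental library of mouse 3, and between 1.86 and 3.07 without any other library.

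**Figure D4:**
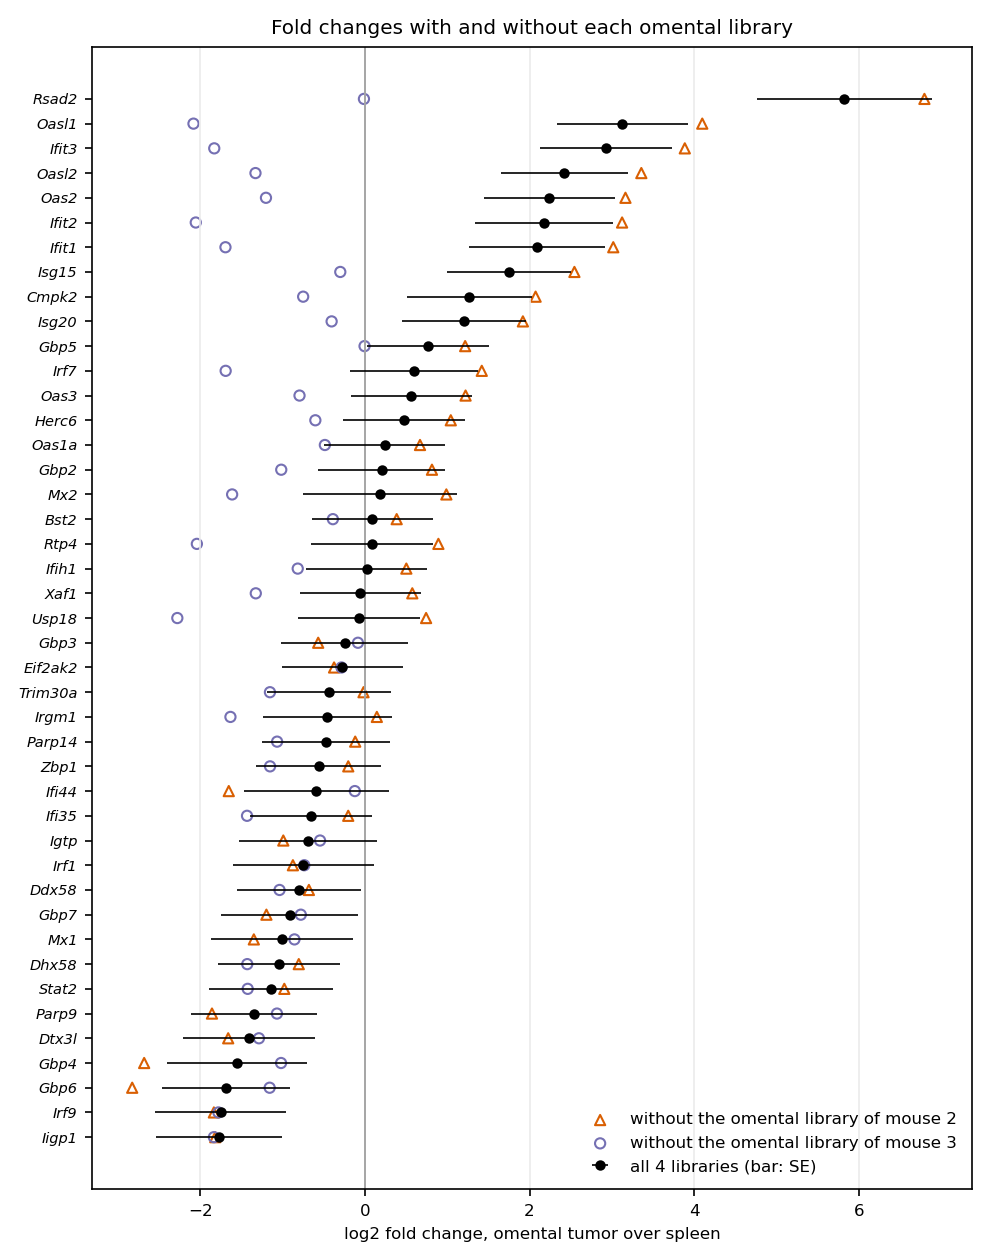
Log2 fold change of omental tumor over spleen (horizontal axis) for the 43 genes (rows), with all 4 libraries (filled points, bars are SE), without the omental library of mouse 2 (triangles) and without that of mouse 3 (open circles), from edgeR fits. The SE is derived from the test statistic and does not hold the spread of a gene between mice. Without the omental library of mouse 3 all 43 values lie below 0, Rsad2 at -0.011 beside 5.82 with all libraries.

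The mouse numbers mark the same animal in both tissues, and a fit with the mouse as replicate block compares the tissues within mice. In it the log2 fold changes were 3.49 for Rsad2, 1.15 for Oasl1 and 1.12 for Ifit3, and none of the 3 passed the test. The median of the type I-led genes was 0.68 with the block, beside 2.13 without it, that of the gamma-led genes -0.64 and that of the remaining genes -0.52. The calls of Rsad2, Oasl1 and Ifit3 also ended under library totals alone, in DESeq2 (1.92% of all genes higher and 0.966% lower) and under the other filters on low counts. With a minimum count of 50, 0.037% of all genes were called higher and 0% lower, and without a filter 0% in either direction. Those of Oasl1 and Ifit3 ended under upper-quartile factors and in limma-voom (0.656% higher and 0.343% lower), where that of Rsad2 held. All 3 held under RLE factors (1.42% higher and 0.178% lower) and under the legacy form of the edgeR fit (1.09% higher and 0.227% lower).

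The pathway around these genes was read from another list of 101 genes, of which 81 could be tested: 5 rose and 0 fell, against 1.16% and 0.263% of all genes, and the median log2 fold change was -0.70. Interferon transcripts themselves were scarce. Ifng, the gene of interferon gamma, had 11.9 CPM and 8.35 CPM in omental tumor, against 4.40 CPM and 13.5 CPM in spleen (log2 fold change 0.19; edgeR adjusted p 0.945). Ifnb1, the gene of interferon beta, had 6.83 CPM and 6.58 CPM in omental tumor, against 6.56 CPM and 0.366 CPM in spleen. Of the 21 listed ligand genes, 3 could be tested, and 0 rose or fell, against 1.16% and 0.263% of all genes, so the count shows nothing particular to them. Ifna15 was the other tested ligand, at 1.97 CPM and 0.253 CPM in omental tumor against 1.17 CPM and 0.0915 CPM in spleen. Ligands made by cells outside the sorted samples were not measured.

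Of 9 receptor and kinase genes, 0 rose and 0 fell, against 1.16% and 0.263% of all genes tested, so the count shows nothing particular to them. Ifnar1 had 665 CPM and 180 CPM in omental tumor, against 420 CPM and 460.3 CPM in spleen. Ifnar2 had 52.0 CPM and 88.6 CPM in omental tumor, against 147 CPM and 30.8 CPM in spleen. Within each mouse, 1 chain of the type I receptor was higher and the other lower in omental tumor. Ifngr1 had 1380 CPM and 864 CPM in omental tumor, against 488 CPM and 773 CPM in spleen, and Ifngr2 had 13.8 CPM and 30.9 CPM in omental tumor, against 41.5 CPM and 8.6 CPM in spleen. Jak1 had 425 CPM and 279 CPM in omental tumor, against 1331 CPM and 330 CPM in spleen. Jak2 had 138 CPM and 103 CPM in omental tumor, against 28.9 CPM and 44.0 CPM in spleen, and was the kinase above spleen in both mice (log2 fold change 1.73; edgeR adjusted p 0.365). Tyk2, the kinase of the type I receptor, had 163 CPM and 25.3 CPM in omental tumor, against 261 CPM and 398 CPM in spleen (log2 fold change -1.80; edgeR adjusted p 0.373).

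Irf8, a factor of myeloid and lymphoid cells, had 61.7 CPM and 26.1 CPM in omental tumor, against 51.7 CPM and 45.7 CPM in spleen. Socs1, the feedback inhibitor of Jak kinases, had 0.656 CPM and 29.1 CPM in omental tumor, against 8.02 CPM and 1.37 CPM in spleen. It shared the split of the type I-led genes, lower in omental tumor of mouse 2 and higher in that of mouse 3, on 5 and 115 counts in omental tumor against 82 and 15 in spleen.

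A further 44 interferon-induced genes, 43 of them tested, allowed the 43 to be set beside others of their kind. Of these 5 rose and 0 fell, against 1.16% and 0.263% of all genes tested: Ifitm1, Ifitm3, Ifi204, Ifi205 and Ifit3b. The median log2 fold change was -0.81, with 15 positive and 28 negative, against 53.9% and 46.1% of all genes. Both omental libraries were above both spleen libraries for 5 genes, against 16.4% of all genes, and below for 24, against 25.4%. Ifitm1 and Ifitm3, membrane proteins that block viral entry, had values without overlap. Ifitm3 had 50.1 CPM and 339 CPM in omental tumor, against 12.2 CPM and 12.5 CPM in spleen (log2 fold change 3.97 ± 0.83, SE; edgeR adjusted p 0.000425). Ifitm1 had 4.07 CPM and 70.4 CPM in omental tumor, against 1.86 CPM and 0.275 CPM in spleen (log2 fold change 5.10 ± 1.0, SE; edgeR adjusted p 0.000105).

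Ifi204 and Ifi205 belong to the family of DNA-binding proteins known as AIM2-like receptors. Ifi204 had 9.45 CPM and 215 CPM in omental tumor, against 4.31 CPM and 4.85 CPM in spleen (log2 fold change 4.60 ± 0.86, SE; edgeR adjusted p 3.12e-05). Ifi205 had 4.73 CPM and 16.0 CPM in omental tumor, against 0.0979 CPM and 0.732 CPM in spleen, from 36 and 63 counts against 1 and 8. These 4 genes were above spleen in both mice, unlike Ifit3b, a near copy of Ifit3, which had 1.84 CPM and 208 CPM in omental tumor, against 7.54 CPM and 6.86 CPM in spleen. Without the omental library of mouse 3 none of the 5 rose, with edgeR adjusted p between 0.646 and 0.808. Without spleen mouse 2 the rise of Ifitm1 held (edgeR adjusted p 0.0232), and without spleen mouse 3 that of Ifi205 held (0.0082). Of the 14 monocyte and macrophage markers, 2 rose, namely Cd14 and Lyz2, and 0 fell, against 1.16% and 0.263% of all genes tested. Cd14 had 23.8 and 273 CPM in omental tumor, against 2.64 and 4.85 CPM in spleen, and Lyz2 had 250.1 and 297 CPM in omental tumor, against 6.85 and 61.8 CPM in spleen (edgeR adjusted p 1.59e-06 and 0.0194). The list was not of 1 direction, with 8 positive and 6 negative log2 fold changes, and Csf1r, the receptor for macrophage colony-stimulating factor, had 38.7 and 14.4 CPM in omental tumor, against 69.9 and 109.7 CPM in spleen (log2 fold change -1.74; edgeR adjusted p 0.363). The part of these markers in the rises of the 5 genes was not tested. With the mouse as replicate block Ifitm1 and Ifi205 rose (edgeR adjusted p 0.0459 and 0.000749), and Ifitm3, Ifi204 and Ifit3b did not pass (0.0530, 0.101 and 0.605). Under library totals alone all 5 calls ended, with edgeR adjusted p of 0.173 for Ifitm1, 0.0889 for Ifitm3, 0.131 for Ifi204, 0.222 for Ifi205 and 0.403 for Ifit3b.

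**Figure D5:**
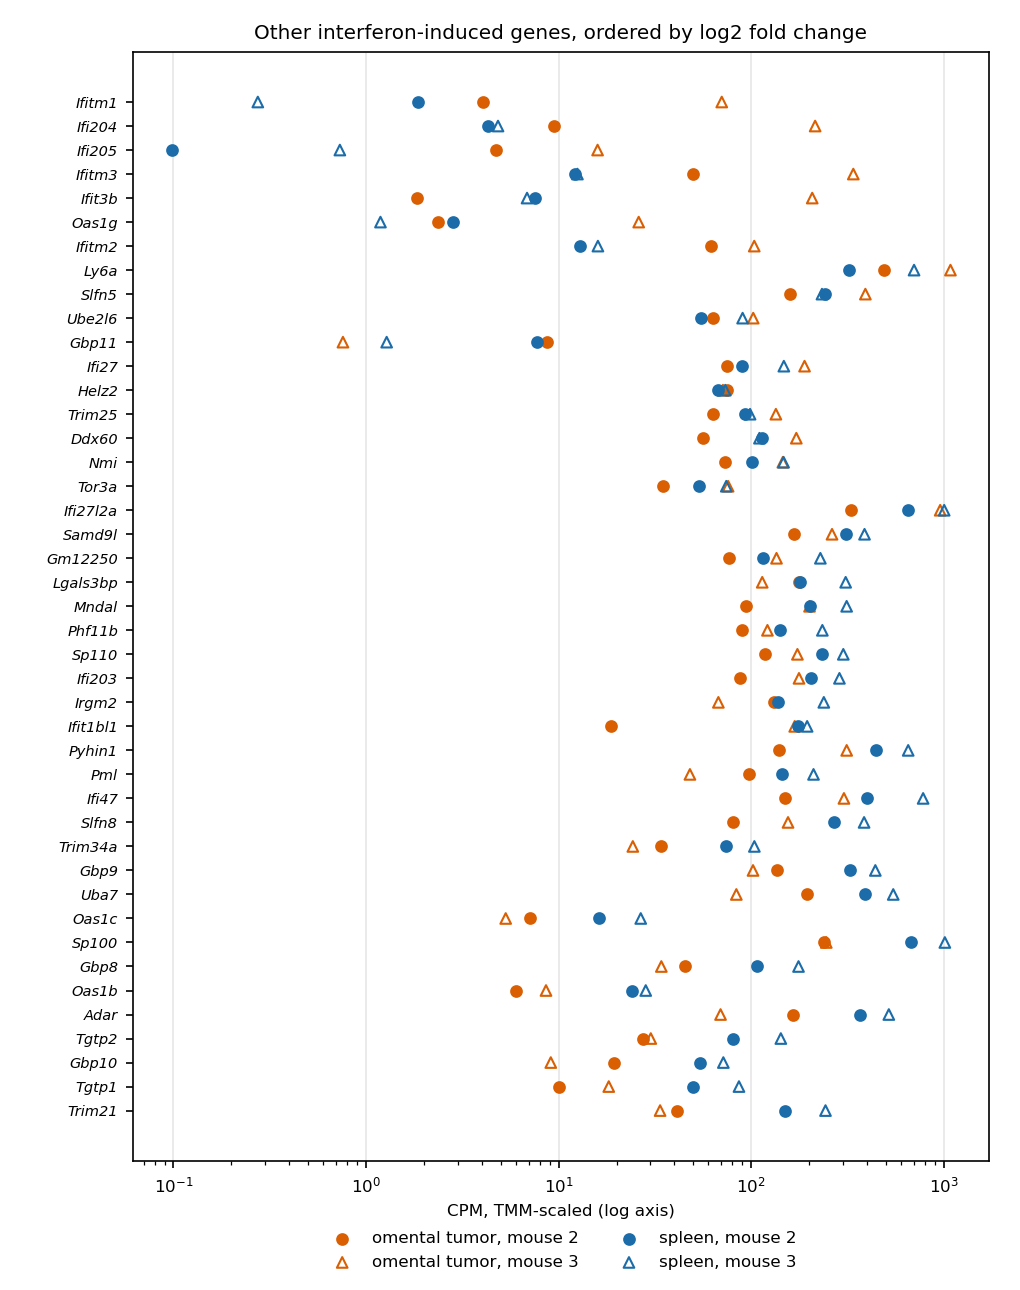
Level of the 43 further interferon-induced genes that were tested (rows, from the highest log2 fold change at the top to the lowest) in CPM on a log axis, with 1 point for each library. At the top Ifitm1, Ifi204, Ifi205 and Ifitm3 have both omental libraries to the right of both spleen libraries, and toward the bottom both omental libraries lie to the left, which held for 24 of the 43 genes in all.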

How the data were processed

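The authors deposited raw read counts per gene symbol, 1 file for each of the 4 libraries. Per the labels' protocols, total RNA was amplified with the SMART-seq v4 kit and made into libraries with Nextera XT, neither of which marks strand. The submitters' processing notes name the build mm10 with TopHat2 and HTSeq, beside Trim Galore and SAMtools. In the sources used here, no tool version, gene annotation or strandedness of counting is given. Of each file, 5 HTSeq summary entries entered neither the library sizes nor any test. Genes took 17.1% and 22.2% of the entries in omental tumor, against 24.9% and 46.0% in spleen. Entries with no feature took 48.9% and 27.3% in omental tumor, against 44.2% and 24.8% in spleen. Alignments that were not unique took 33.5% and 49.9% in omental tumor, against 30.2% and 28.0% in spleen, so near-identical copies such as Ifit3 and Ifit3b may lose reads.

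In R 4.3.3 with edgeR 4.0.16, filterByExpr at a minimum count of 10 kept 16322 of 24421 genes. The omental libraries had TMM factors of 1.15 and 1.05, against 1.03 and 0.804 in spleen. Tissue was tested by the quasi-likelihood test (glmQLFit with legacy set to false, glmQLFTest) with Benjamini-Hochberg adjustment over all genes tested, at 2 residual degrees of freedom. A positive log2 fold change is a higher level in omental tumor. The prior degrees of freedom were infinite, so the spread of a single gene between mice does not enter its SE or p, and the smallest absolute log2 fold change called was 2.64. CPM are TMM-scaled, and ratios within a mouse add 0.5 CPM. The analysis script was tested on simulated data. At a simulated absolute log2 fold change of 1 it called 0% of genes, at 2 it called 10.2%, at 3 46.9% and at 5 80%. A count of 0 genes called therefore says little about small differences. Alternatives were other scaling factors, other filters, DESeq2 1.42.0, limma-voom (limma 3.58.1), the mouse as replicate block and leaving out each library; the legacy form of glmQLFit was added after the data were seen.

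Mouse 2 and mouse 3 name the same animal in both tissues per the labels, so the numbers were taken as pairs; within a mouse, the 2 libraries' deviations from their tissue mean had a correlation of 0.234 over all genes tested. The labels name no batch, so none could be separated. The members and the other gene lists were chosen with earlier results of these data known, and no test was made over a list. Named genes were any of the 43, the further pathway genes past the threshold, ligands, receptors and kinases, Irf8, Socs1, and the most abundant markers. Flt3, Lyz2, Cd14, Csf1r, Col3a1, Lum, Wt1, S100a8, Ngp and Camp were named after their values were seen. One further result is not reported here. Gene coordinates are from GENCODE M21 (GRCm38, the assembly of mm10) and promoters from RefSeq's GRCm38.p6 table, both of which may differ from the annotation used for counting.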

Additional observations from a re-analysis of the deposited data

How the results depend on the processing

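The count of all genes higher in omental tumor was 190, and became 26 under library totals alone, 0 without a filter on low counts (against 4 at a minimum count of 50), 107 in limma-voom, and 53 to 248 when 1 library was left out. The count lower was 43, and became 13 under upper-quartile factors, 2 under library totals, 0 both without a filter and at a minimum count of 50, 124 in DESeq2, and 6 to 25 when 1 library was left out. Of the 43 interferon-stimulated genes, 3 were higher, and this became 1 under upper-quartile factors and in limma-voom, and 0 under library totals, without a filter, at a minimum count of 50, in DESeq2 and with the replicate block; it was 0 to 5 when 1 library was left out. It stayed at 3 under RLE factors and under the legacy form of glmQLFit, chosen after seeing the data, and 0 of the 43 were lower under any setting run. The median of the type I-led genes ranged from -1.47 to 3.07 when 1 library was left out, turning negative without the omental library of mouse 3. That of the gamma-led genes ranged from -1.15 to 0.068, turning positive without spleen mouse 3. That of the remaining genes ranged from -1.07 to 0.15 and was 0.19 under upper-quartile factors. Log2 fold changes when 1 library was left out ranged from -0.011 to 6.79 for Rsad2, from -2.08 to 4.10 for Oasl1, from -1.83 to 3.89 for Ifit3 and from -2.05 to 4.84 for Ifit3b. The cause of these changes was not tested, except that fits without a library have fewer samples. The median over all genes tested shifted from 0.13 to 0.62 under upper-quartile factors, 0.40 under library totals and 0.25 under RLE factors, and fold changes read relative to it. The replicate block raised the counts over all genes to 210 higher and 51 lower, and ended the calls of Rsad2, Oasl1, Ifit3, Ifitm3, Ifi204 and Ifit3b; it added no call among the 43. Low counts limit Mx2, Ifi44, Oasl1 and the ligands most, where 1 count is worth up to 0.253 CPM.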
